A study of Mus musculus with 12 samples.

Results

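The 10 genes described here are the angiomotins Amot, Amotl1 and Amotl2, the Hippo pathway coactivators Yap1 and Wwtr1, the kinases Lats1 and Lats2, and the transcriptional targets Ccn1, Ccn2 and Ankrd1. They are 10 of 18193 genes measured by a probe set with a single gene symbol, and they are covered by 27 of 34945 such probe sets. The genes were taken by symbol, with Ccn1 also known as Cyr61 and Ccn2 as Ctgf, and for each gene the brightest of its probe sets, by the average of all 12 arrays, was used. The probe sets were chosen by that average level, and the family was put together with earlier results of these data known. The adjusted p of a member therefore says where it falls in a fit over all genes and is not independent evidence for it. One more probe set, shared by Lats2 and another gene, was left out.

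RNA came from tumours of 3 mouse lung adenocarcinoma lines, with 4 1-colour Affymetrix arrays per line. 344SQ is labelled highly metastatic and was grown from a subcutaneous tumour of mouse 344, 393LN is labelled intermediately metastatic and came from a mediastinal lymph node of mouse 393, and 393P is labelled non-metastatic and came from a primary lung tumour of mouse 393. All 3 are mass cultures from mice with the alleles p53R172H∆g/+ and K-rasLA1/+, so a mutant p53 allele and an activated K-ras allele are shared by every group, and each line stands for 1 tissue of 1 mouse. Between 344SQ and the 393 lines, the line and the mouse it came from cannot be told apart. The tumours grew in syngeneic mice and were snap-frozen, so the RNA includes that of the host stroma. Nothing in the labels says which tumours came from separate hosts, so p-values measure the spread between these samples.

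The median log2 intensity of an array was 7.19 to 7.29. The tumour epithelium markers Epcam, Krt8, Krt18, Krt19, Krt7 and Cdh1 were above the floor in every line, with a summed intensity of 65652 to 72304 in 344SQ, 68563 to 81477 in 393LN and 71450 to 88669 in 393P. One of the 6, Epcam, an adhesion molecule of epithelial cells, differed far more than that sum: it was at 8.30, 10.00, 9.95 and 10.27 on the log2(intensity + 16) scale in 344SQ, 13.35, 13.43, 13.19 and 13.10 in 393LN and 13.22, 13.51, 13.56 and 13.51 in 393P. Epcam was 14.1-fold lower in 344SQ than in 393P (-3.82 ± 0.33 SE, limma adjusted p = 2.49e-05) and 12.4-fold lower than in 393LN (-3.64 ± 0.33, adjusted p = 4.24e-05), and the other 5 markers passed in no comparison. As a check of RNA integrity, actin probes at the 3' end were 1.47 times as bright as those at the 5' end on 393P replicate 1, and 1.04 to 1.19 times on every other array. Fibroblast markers summed to 53541 to 64214 in 344SQ, 37219 to 56210 in 393LN and 37166 to 52047 in 393P, so that 344SQ lay above 393P without overlap although 0 of the 9 markers passed the limma test in any comparison (5 at an unadjusted p under 0.05 in 344SQ against each 393 line). The share of all genes at that unadjusted threshold was not computed. Macrophage markers summed to 8792 to 12875 in 344SQ, 11365 to 17879 in 393LN and 15043 to 22093 in 393P. Of 7 markers, 3 were lower in 344SQ than in 393P and 2 lower than in 393LN, where 5.62% and 6.92% of all genes were lower. The part of these marker differences in the results below was not tested. In a bulk tumour fewer cells of a type and less RNA per cell cannot be told apart.

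The Hippo pathway restrains growth at cell contacts. Its kinase cascade ends in LATS1 and LATS2, which phosphorylate YAP and its relative TAZ, the product of Wwtr1, and keep them out of the nucleus. In the nucleus YAP and TAZ bind TEAD factors and switch on genes such as Ccn1, Ccn2 and Ankrd1. Angiomotins are scaffold proteins of tight junctions and the actin skeleton that bind YAP and hold it in the cytoplasm, and Amotl2 and Lats2 are themselves known in human cells as YAP and TAZ targets.

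The stretch of 250 bases before the annotated start is shown for 5 of the genes, because TEAD factors recognise GGAATG and its reverse complement CATTCC and because they show Amot, the member with the largest change, beside members that hold the motif: Amot, Amotl2, Wwtr1 (the first of its starts by position), Ccn1 and Ankrd1. The sequences are from RefSeq on GRCm38.p6, read along the gene, at chrX:145487640-145487889 (minus strand), chr9:102717554-102717803 (plus strand), chr3:57575877-57576126 (minus strand), chr3:145649986-145650235 (minus strand) and chr19:36119845-36120094 (minus strand), and capitals mark the motif on either strand.
Amot: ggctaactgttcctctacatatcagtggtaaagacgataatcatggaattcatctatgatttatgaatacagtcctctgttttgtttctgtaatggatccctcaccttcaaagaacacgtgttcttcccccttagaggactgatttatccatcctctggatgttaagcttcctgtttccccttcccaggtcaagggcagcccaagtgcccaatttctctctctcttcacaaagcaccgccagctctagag
Amotl2: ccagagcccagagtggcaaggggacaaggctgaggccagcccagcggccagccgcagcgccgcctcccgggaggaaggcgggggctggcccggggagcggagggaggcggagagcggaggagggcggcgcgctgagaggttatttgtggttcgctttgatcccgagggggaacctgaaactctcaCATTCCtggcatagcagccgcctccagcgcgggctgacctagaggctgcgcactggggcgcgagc
Wwtr1: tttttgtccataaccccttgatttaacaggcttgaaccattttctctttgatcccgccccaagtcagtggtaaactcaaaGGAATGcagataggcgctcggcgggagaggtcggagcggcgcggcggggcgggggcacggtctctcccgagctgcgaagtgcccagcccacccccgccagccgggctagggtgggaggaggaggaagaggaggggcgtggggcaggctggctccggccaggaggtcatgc
Ccn1: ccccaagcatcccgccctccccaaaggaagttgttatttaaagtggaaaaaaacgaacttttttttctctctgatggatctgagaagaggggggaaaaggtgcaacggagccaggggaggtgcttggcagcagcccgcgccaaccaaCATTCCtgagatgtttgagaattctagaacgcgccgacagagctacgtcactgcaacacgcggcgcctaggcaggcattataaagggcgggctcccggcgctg
Ankrd1: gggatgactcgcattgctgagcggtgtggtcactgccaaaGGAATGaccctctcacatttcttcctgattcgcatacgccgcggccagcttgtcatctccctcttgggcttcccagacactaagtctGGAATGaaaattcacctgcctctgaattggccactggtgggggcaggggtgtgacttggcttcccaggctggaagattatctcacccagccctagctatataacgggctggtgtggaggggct
Of the 9 members with a window in the table (Ccn2 has no entry), 5 held the motif: Amotl2, Yap1, Wwtr1, Ccn1 and Ankrd1. It lay 65 bases before the start in Amotl2, 103 in Ccn1 and, with a pair of copies, 210 and 123 in Ankrd1, counted from its first base. Counted by window, 6 of the 11 member windows held the motif, and 12.6% of all 32851 windows of the same length did. The members include genes taken as YAP and TAZ targets, so nothing is read from this count. The Amot window had no match and held 3 CG dinucleotides, against a median of 6 over all windows. Its start lies inside the gene's span, as do starts of Amotl1, Amotl2, Yap1, Wwtr1, Lats1 and Lats2. A match is a description of the letters and not of a bound site.

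Levels are given as log2(intensity + 16), on which the floor of the table is 4.09. The 3 comparisons share arrays: each line enters 2 of them.

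By its chosen probe set, 1454890_at, Amot was lowest in 344SQ, intermediate in 393LN and highest in 393P. Its level was 5.09, 4.92, 5.42 and 4.81 on the 4 344SQ arrays, 6.52, 5.67, 6.56 and 7.14 on the 393LN arrays and 8.63, 9.66, 9.96 and 10.39 on the 393P arrays. No array of one line overlapped those of another. As intensities these are 12.04 to 26.9 in 344SQ, 35.02 to 125 in 393LN and 380 to 1323 in 393P, with the table's lowest possible value at 1. Amot was 24.2-fold lower in 344SQ than in 393P (log2 change -4.60 ± 0.36 SE, n = 4 per line, limma adjusted p = 1.05e-05) and 9.11-fold lower in 393LN than in 393P (-3.19 ± 0.36, limma adjusted p = 0.00233). The size of these folds depends on the pseudocount, since the 344SQ intensities are low: with a pseudocount of 1 they were 43.9-fold and 10.9-fold, and with 64 they were 10.6-fold and 6.21-fold. The step between 344SQ and 393LN was smaller, at 2.66-fold (-1.41 ± 0.36, limma adjusted p = 0.0264). That last call ended without 344SQ replicate 1, 2 or 4 or without 393LN replicate 1, 3 or 4 (highest limma adjusted p 0.0734), and with a pseudocount of 64 (0.114). The first and second calls held without any single array, with adjusted p up to 0.000115 and 0.0143. Without 393P replicate 1, the array with the high actin ratio and the lowest Amot of its line, the change between 344SQ and 393P was -4.94.

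The other probe sets of Amot did not follow this pattern. The chosen one was the brightest by the average of all arrays (7.06 against 6.78 and 6.77) only through its level in 393P. In 344SQ and 393LN, at means of 5.06 and 6.47, it was the dimmest of the 3. Its choice thus rests on the same values as its pattern. Probe set 1425907_s_at averaged 6.66 ± 0.34 in 344SQ, 6.80 ± 0.25 in 393LN and 6.87 ± 0.27 in 393P (SD, n = 4), and 1427584_at averaged 6.65 ± 0.34, 6.75 ± 0.44 and 6.93 ± 0.31 in the same order of lines. Their changes between 344SQ and 393P were -0.21 and -0.28 (limma adjusted p = 0.615 and 0.588 over all probe sets), and the arrays of the lines overlapped in both. With the mean of the 3 probe sets in place of 1, the change of the gene was -1.70 between 344SQ and 393P, -1.15 between 393LN and 393P and -0.55 between 344SQ and 393LN. Which transcripts each of these probe sets detects was not analysed here.

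**Figure D1:**
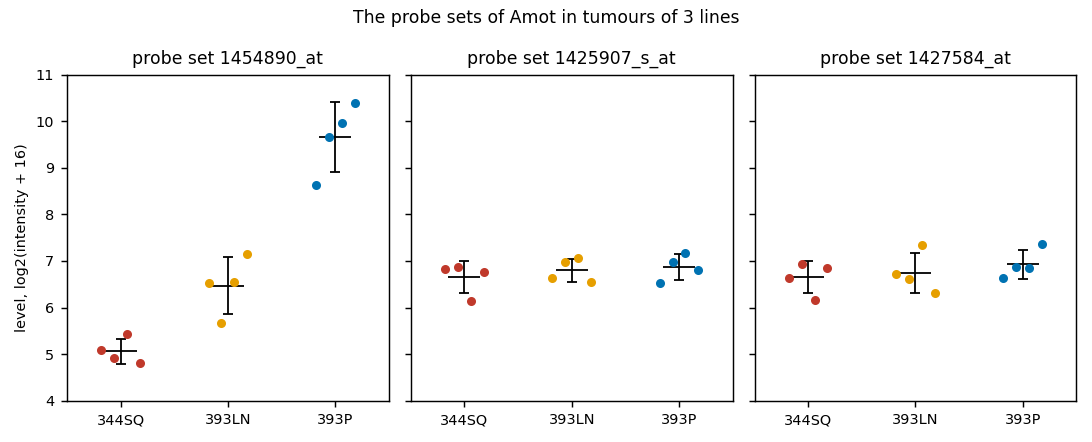
Level of each Amot probe set, as log2(intensity + 16), on every array of 344SQ, 393LN and 393P; points are arrays, and the black bar and whiskers are the mean and SD of 4 arrays. Probe set 1454890_at separates the 3 lines, with means of 5.06, 6.47 and 9.66, while in the other two the lines overlap.

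Amotl1 was also lower in 344SQ than in 393P, by a smaller step. Its level was 10.27, 9.96, 10.39 and 10.69 on the 344SQ arrays, 11.59, 10.97, 10.53 and 10.87 on the 393LN arrays and 11.49, 11.67, 11.45 and 10.96 on the 393P arrays. The 344SQ arrays all lay below the 393P arrays, and 393LN overlapped with both. Amotl1 was 2.09-fold lower in 344SQ than in 393P (log2 change -1.06 ± 0.23 SE, limma adjusted p = 0.0114), and this call held without any single array (up to 0.0395). The change between 344SQ and 393LN was -0.66 ± 0.23 (limma adjusted p = 0.0882) and that between 393LN and 393P was -0.40 ± 0.23 (limma adjusted p = 0.446). A second Amotl1 probe set, 1455247_at, had changes of -1.21 and -0.91 in 344SQ against 393P and against 393LN (limma adjusted p = 0.00799 and 0.0357 over all probe sets). The third, 1431121_at, had a change of -0.20 between 344SQ and 393P (adjusted p = 0.591).

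Amotl2 differed more within lines than between them. Its level was 11.04, 10.78, 10.89 and 9.91 in 344SQ, 10.83, 9.64, 10.40 and 10.59 in 393LN and 9.93, 11.16, 10.82 and 10.00 in 393P. The lines overlapped in full. The change between 344SQ and 393P was 0.18, with a 95% interval from -0.56 to 0.92 (limma adjusted p = 0.825), and it was 0.29 (-0.45 to 1.03) between 344SQ and 393LN and -0.12 (-0.86 to 0.62) between 393LN and 393P.

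**Figure D2:**
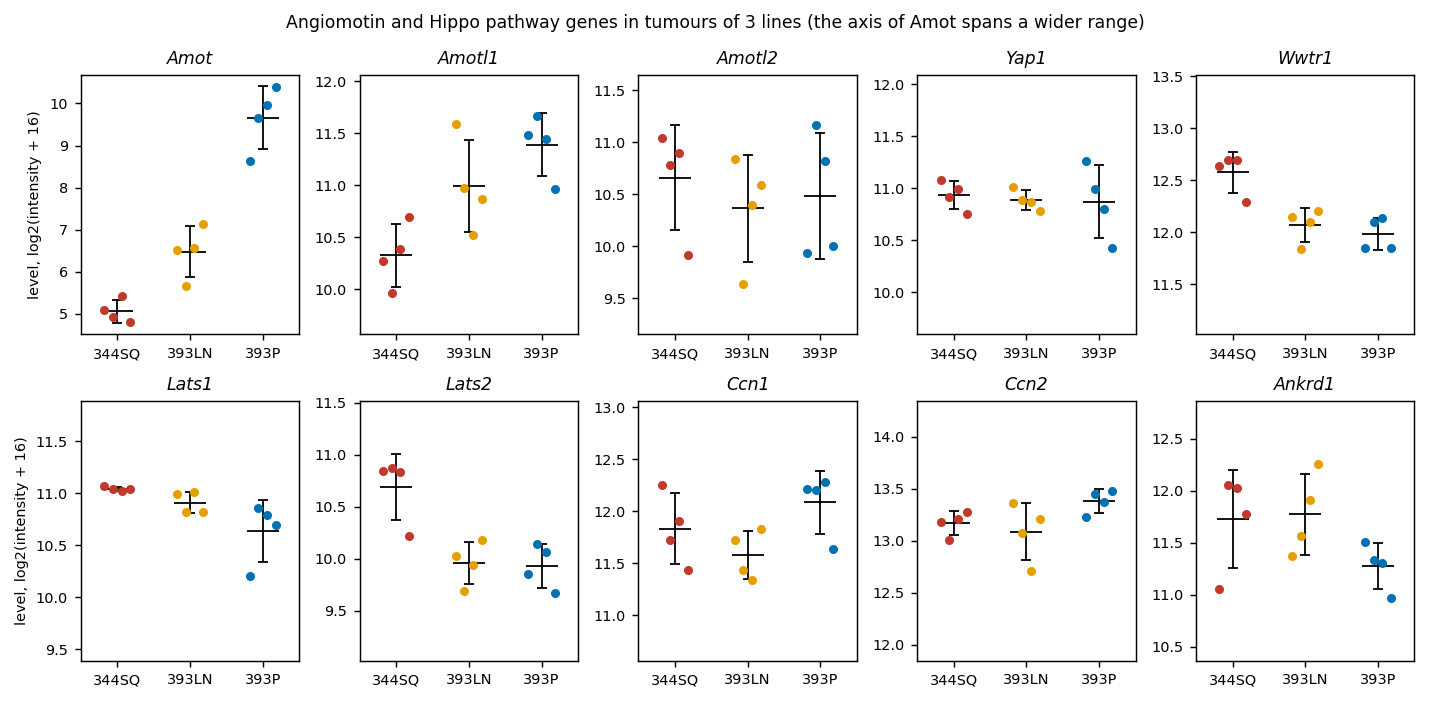
Level of the 10 genes, as log2(intensity + 16), on every array of 344SQ, 393LN and 393P; points are arrays and the black bar and whiskers are the mean and SD of 4 arrays. Amot separates the 3 lines, Wwtr1 and Lats2 are highest in 344SQ, and Yap1 has means of 10.93, 10.88 and 10.87.

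Of the coactivator genes, Yap1 showed no call in any comparison. It stood at 11.08, 10.91, 10.99 and 10.75 in 344SQ, 11.01, 10.88, 10.86 and 10.78 in 393LN and 11.26, 10.99, 10.80 and 10.43 in 393P. Its changes were 0.06 (95% interval -0.27 to 0.40) in 344SQ against 393P, 0.05 (-0.29 to 0.39) in 344SQ against 393LN and 0.01 (-0.32 to 0.35) in 393LN against 393P. Its second probe set had changes of -0.09, -0.03 and -0.06. Wwtr1, which encodes TAZ, was higher in 344SQ than in either 393 line.

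Wwtr1 stood at 12.63, 12.69, 12.69 and 12.28 in 344SQ, 12.15, 11.84, 12.10 and 12.20 in 393LN and 11.85, 12.10, 12.14 and 11.85 in 393P. All 344SQ arrays lay above all others, with replicate 4 the lowest of its line. Wwtr1 was 1.51-fold higher in 344SQ than in 393P (log2 change 0.60 ± 0.13 SE, limma adjusted p = 0.0118) and 1.42-fold higher than in 393LN (0.51 ± 0.13, adjusted p = 0.0266). The call against 393LN ended without 344SQ replicate 1, 2 or 3 or 393LN replicate 2 or 3 (highest limma adjusted p 0.0785). The other probe sets had changes of 0.15 and 0.19 against 393P and of 0.27 and 0.39 against 393LN, none past the test. With the mean of the probe sets the changes were 0.31 and 0.39 and neither call held (adjusted p = 0.153 and 0.0699).

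Among the kinases, Lats2 was higher in 344SQ. It stood at 10.84, 10.87, 10.83 and 10.22 in 344SQ, 10.03, 9.69, 9.94 and 10.18 in 393LN and 9.86, 10.14, 10.06 and 9.67 in 393P. The 344SQ arrays lay above all others, and 344SQ replicate 4 lay close to the highest 393LN array. Lats2 was 1.69-fold higher in 344SQ than in 393P (0.76 ± 0.17, limma adjusted p = 0.0139) and 1.66-fold higher than in 393LN (0.73 ± 0.17, adjusted p = 0.0176). The call against 393LN ended without 344SQ replicate 1 or 2 or 393LN replicate 2 (highest limma adjusted p 0.0574). The chosen probe set, 1439441_x_at, is of a kind whose probes can match other transcripts. None of the other 5 passed: against 393P their changes were 0.86, 0.32, 0.07, -0.20 and -0.31. With the mean of the probe sets the changes were 0.25 against 393P and 0.35 against 393LN, and neither call held (adjusted p = 0.191 and 0.0674).

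Lats1 was at 11.07, 11.04, 11.02 and 11.04 in 344SQ, 10.99, 10.82, 11.01 and 10.82 in 393LN and 10.21, 10.86, 10.79 and 10.69 in 393P. The 344SQ arrays lay just above all others and scarcely varied, while the lowest value was on 393P replicate 1. The change was 0.40 ± 0.13 between 344SQ and 393P (limma adjusted p = 0.0783) and 0.13 ± 0.13 between 344SQ and 393LN (adjusted p = 0.596), and without 393P replicate 1 it was 0.26 between 344SQ and 393P (adjusted p = 0.0968). Its second probe set, 1427679_at, was higher in 344SQ than in 393P and in 393LN, by 0.52 and 0.74 (limma adjusted p = 0.0118 and 0.0018 over all probe sets). With the mean of both probe sets Lats1 was higher in 344SQ than in 393P and in 393LN, by 0.46 and 0.44 (adjusted p = 0.0135 and 0.0185).

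The target genes did not pass in any comparison. Ccn2, which encodes a matricellular growth factor, was at 13.18, 13.01, 13.21 and 13.28 in 344SQ, 13.36, 13.07, 12.71 and 13.21 in 393LN and 13.23, 13.45, 13.37 and 13.48 in 393P. Its change was -0.21 (95% interval -0.51 to 0.08) between 344SQ and 393P, 0.08 (-0.21 to 0.38) between 344SQ and 393LN and -0.29 (-0.59 to -0.00017) between 393LN and 393P, with limma adjusted p of 0.397, 0.762 and 0.319. All 3 lines lay within a narrow band, and 393P was the highest by its mean.

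Ccn1, a matricellular protein gene of the same family, was at 12.25, 11.73, 11.91 and 11.44 in 344SQ, 11.73, 11.44, 11.34 and 11.83 in 393LN and 12.21, 12.20, 12.28 and 11.64 in 393P. In 344SQ its change was -0.25 against 393P and 0.25 against 393LN (limma adjusted p = 0.4995 and 0.472), and in 393LN it was -0.50 against 393P (adjusted p = 0.225). The groups overlapped in each comparison. Its 3 other probe sets had changes of -0.18, -0.72 and -0.92 between 344SQ and 393P, none past the test.

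Ankrd1, which encodes a muscle ankyrin repeat protein, was at 11.05, 12.06, 12.03 and 11.78 in 344SQ, 11.37, 11.57, 11.91 and 12.25 in 393LN and 11.51, 11.33, 11.30 and 10.97 in 393P. The change was 0.45 ± 0.24 in 344SQ and 0.50 ± 0.24 in 393LN, each against 393P (limma adjusted p = 0.293 and 0.351). One array, 344SQ replicate 1, was low, and without it the change between 344SQ and 393P was 0.68 (adjusted p = 0.0684). The second Ankrd1 probe set had changes of 0.64 and 0.75 against 393P (adjusted p = 0.187 and 0.190). Skeletal muscle markers summed to 1742 to 4798 in 344SQ, 2008 to 10153 in 393LN and 2130 to 4235 in 393P. The array with the highest sum, 393LN replicate 1, had the lowest Ankrd1 of its line. Heart muscle markers are given with the other cell types at the end. The part of muscle RNA in the Ankrd1 values was not tested.

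**Figure D3:**
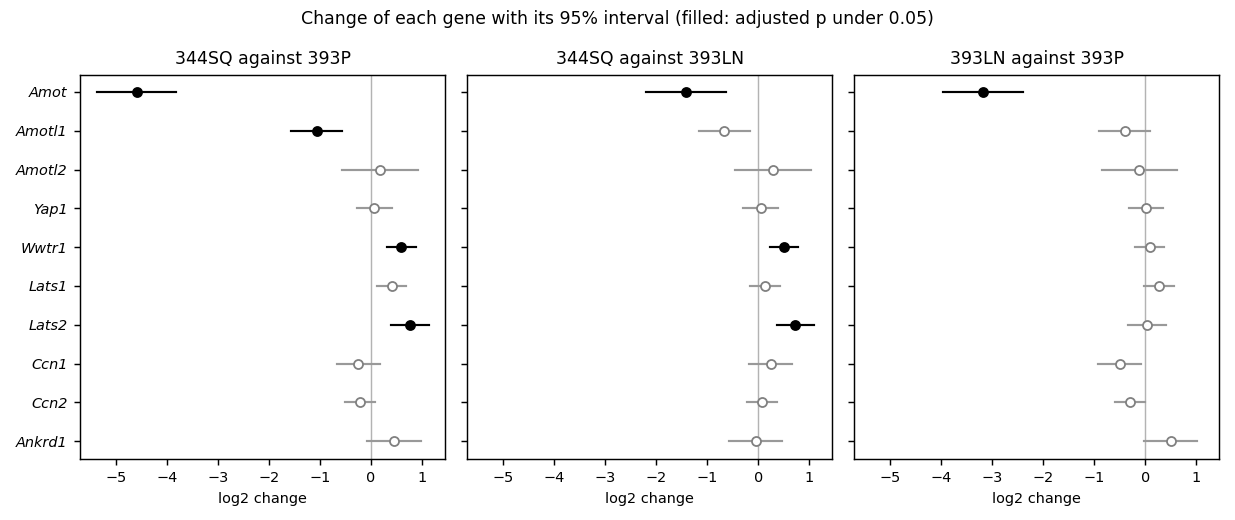
Log2 change of each gene with its 95% interval in the 3 comparisons between lines; filled points have an adjusted p under 0.05. Amot is the only filled point in all 3 panels, and the intervals of Yap1 and Amotl2 include 0 throughout.

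By the count, 2 of the 10 genes were higher (Wwtr1 and Lats2) and 2 lower (Amot and Amotl1) in 344SQ than in 393P at a limma adjusted p under 0.05, where 4.86% of all genes were higher and 5.62% lower. Against 393LN, 2 were higher (Wwtr1 and Lats2) and 1 lower (Amot), where 3.99% and 6.92% of all genes were. In 393LN against 393P, 0 were higher and 1 was lower (Amot), where 1.75% and 0.698% of all genes were; at an unadjusted p under 0.05, 0 were higher and 3 lower. The median change of the 10 genes was 0.12, 0.11 and -0.05 in these comparisons, against medians over all genes of -0.00066, -0.02 and 0.0095. In 5 of the 10 genes the 4 344SQ values did not overlap the 4 of 393P, as was so for 16.7% of all genes. In 4 they did not overlap those of 393LN (17.4% of all genes). As the family was chosen with results known, nothing is read from these counts.

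The wider pathway was described with a list of 46 genes, of which 45 were measured (Stk3 was not analysed here). Compared with 393P, 344SQ had 3 of them higher and 4 lower, where 4.86% and 5.62% of all genes were called. Among partners and ligases of the angiomotins, Patj, a junction scaffold that binds Amot, was lower by 0.73 on the log2 scale (limma adjusted p = 0.00773), and Magi1, another scaffold of junctions, by 0.72 (adjusted p = 0.0160). Nedd4l, a ubiquitin ligase that acts on angiomotins in human cells, was 1.62-fold lower (adjusted p = 0.00765), and its relative Nedd4 1.55-fold higher (adjusted p = 0.00821). Tnks, the tankyrase that marks angiomotins for degradation in human cells, was 1.46-fold higher (adjusted p = 0.00502). Among the kinases, Stk38l, a relative of LATS, was 1.83-fold lower (adjusted p = 0.00724), and Taok1, which acts upstream of MST kinases, 1.36-fold higher (adjusted p = 0.0452). The call of Taok1 ended without any of 344SQ replicates 1, 3 and 4 or 393P replicates 1, 3 and 4 (highest adjusted p 0.118). The list's median change was 0.03.

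Patj stood at 9.73, 9.79, 9.89 and 9.90 in 344SQ and at 10.63, 10.58, 10.52 and 10.51 in 393P. Tnks stood at 10.30, 10.36, 10.60 and 10.55 in 344SQ, against 9.90, 9.92, 9.96 and 9.83 in 393P. Both separated 344SQ from 393P with a gap wider than the spread within these lines. In 393LN, Patj was at 10.33, 10.00, 10.32 and 9.60, which overlapped 344SQ, and Tnks at 10.09, 9.95, 9.99 and 9.81, which overlapped 393P. Of the other probe sets of Patj, 1442244_at also was lower in 344SQ (-0.63, limma adjusted p = 0.0271 over all probe sets), and of those of Tnks none passed. With the mean of all probe sets of a gene, 0 genes of the list were higher and 1 lower, so the calls of Tnks, Nedd4 and Taok1 ended. Which gene was the 1 lower is not given here. The calls of Patj, Magi1, Nedd4l and Stk38l each ended under 1 of 9 alternatives in processing. Their highest limma adjusted p over these alternatives was 0.0589, 0.0971, 0.352 and 0.0965, and their smallest changes were -0.43, -0.32, -0.20 and -0.39.

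Compared with 393LN, 3 genes of the list were higher and 1 lower in 344SQ, where 3.99% and 6.92% of all genes were called. Wtip, an inhibitor of LATS of the Ajuba family, was 3.31-fold higher (1.73 ± 0.25, limma adjusted p = 0.00120) and the atypical cadherin gene Fat1 1.70-fold (0.77 ± 0.11, adjusted p = 0.00139). Tnks was 1.40-fold higher (adjusted p = 0.0102). Nedd4l was 1.40-fold lower (adjusted p = 0.0456), a call that ended without any one of 7 arrays, all but 344SQ replicate 1 (highest adjusted p 0.130). In 393LN against 393P, where 1.75% of all genes were higher and 0.698% lower, Wtip and Fat1 were lower, 3.69-fold and 1.93-fold (adjusted p = 0.00422 and 0.00271), and Btrc and Usp9x higher, 1.63-fold and 1.55-fold (adjusted p = 0.0451 and 0.0199). Btrc encodes the ligase subunit that recognises phosphorylated YAP, and Usp9x a deubiquitinase that acts on Amot in human cells. The call of Btrc ended without any one of 7 arrays, all but 393LN replicate 2 (highest adjusted p 0.119), and that of Usp9x without 393LN replicate 3 or 4 or 393P replicate 3 (0.0645).

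Wtip was lowest in 393LN. Its level was 9.29, 9.92, 10.05 and 9.74 in 344SQ, 8.05, 8.07, 7.33 and 8.65 in 393LN and 9.75, 10.11, 10.11 and 9.67 in 393P. Fat1 was at 13.16, 13.02, 13.16 and 12.87 in 344SQ, 12.13, 12.35, 12.31 and 12.35 in 393LN and 13.01, 13.26, 13.23 and 13.42 in 393P. In both genes the 393LN arrays lay below all others, while 344SQ and 393P overlapped. Of the TEAD and VGLL genes, the transcription partners of YAP and TAZ, 0 of 8 passed the limma test in any comparison, and 2, 1 and 0 had an unadjusted p under 0.05, all higher. These unadjusted counts have no share of all genes beside them. The largest change was that of Tead4, at 1.14 between 344SQ and 393P (limma adjusted p = 0.101) and 1.06 between 344SQ and 393LN (adjusted p = 0.118).

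A list of 17 genes known as YAP and TAZ targets in human tumours holds no member and shares Ptpn14 with the pathway list. Of these 17, 344SQ had 3 higher and 1 lower when set against 393P, where 4.86% and 5.62% of all genes were called. Against 393LN it had 4 higher and 0 lower, where 3.99% and 6.92% of all genes were called. At an unadjusted p under 0.05 the counts were 6 higher and 1 lower against 393P and 6 and 0 against 393LN. The share of all genes at that unadjusted threshold was not computed, so nothing is read from these counts. Foxf2, a forkhead factor gene of mesenchyme, was 4.18-fold higher than in 393P (2.06 ± 0.29, limma adjusted p = 0.000787) and 3.96-fold higher than in 393LN (1.99 ± 0.29, adjusted p = 0.00120). The Foxf2 intensities of the 393 arrays were low, at 10.7 to 42.8 in 393LN and 19.2 to 25.8 in 393P, and its fold against 393P was 6.17 with a pseudocount of 1, 2.44 with 64 and 2.04 with the mean of its probe sets. Nt5e, which encodes the ectoenzyme CD73, was 2.26-fold higher than in 393P (1.18 ± 0.28, adjusted p = 0.0193) and 2.51-fold higher than in 393LN (1.33 ± 0.28, adjusted p = 0.0111). The receptor kinase gene Axl was 2.62-fold higher than in 393P (adjusted p = 0.0259), and its change against 393LN was 0.86 (adjusted p = 0.146). Averaged over its probe sets, Axl was 1.90-fold higher than in 393P and 1.80-fold higher than in 393LN (adjusted p = 0.00884 and 0.0143). F3, the tissue factor gene, and Fjx1, a relative of a fly gene that modifies Fat cadherins, were 3.35-fold and 2.44-fold higher than in 393LN (adjusted p = 0.00297 and 0.0454). Asap1, which regulates Arf GTPases, was 1.35-fold lower than in 393P (adjusted p = 0.0336). The list's median change in 344SQ was 0.31 against 393P and 0.14 against 393LN, and in 393LN it was -0.10 against 393P. In 393LN against 393P 0 of 17 passed by limma, with 2 lower at an unadjusted p under 0.05.

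Foxf2 was at 7.61, 7.20, 7.84 and 6.70 in 344SQ, 4.74, 4.95, 5.85 and 5.88 in 393LN and 5.14, 5.39, 5.24 and 5.34 in 393P. Nt5e was at 12.93, 12.70, 12.43 and 12.50 in 344SQ, 12.24, 11.33, 10.64 and 11.04 in 393LN and 11.24, 11.87, 11.47 and 11.29 in 393P. The 344SQ arrays lay above all others in both genes. The call of Nt5e against 393P ended without 344SQ replicate 1 or 2 or 393P replicate 4 (highest limma adjusted p 0.0556), that of Axl without 344SQ replicate 1, 2 or 3 or 393P replicate 4 (0.0686), that of Fjx1 without any one of 7 arrays, all but 393LN replicate 3 (0.114), and that of Asap1 without any one of 7, all but 344SQ replicate 3 (0.0904). The fibroblast marker sum, given above, was also higher in 344SQ than in 393P, and its part in these changes was not tested.

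**Figure D4:**
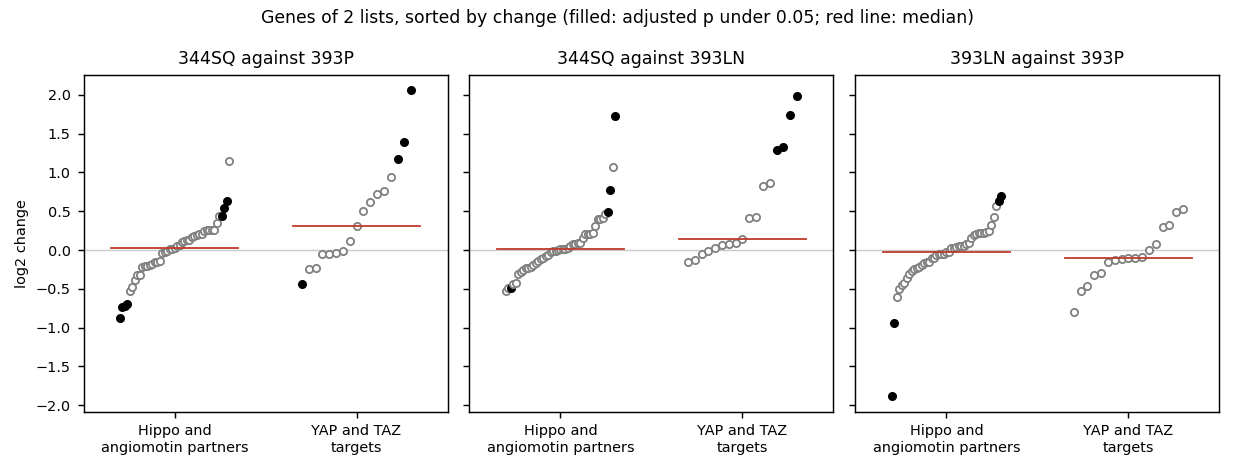
Log2 change of each gene of the Hippo and angiomotin partner list (45 genes) and of the YAP and TAZ target list (17 genes) in the 3 comparisons, sorted within a list; filled points have an adjusted p under 0.05 and red lines are list medians. Ptpn14 is in both lists. The target medians are 0.31 and 0.14 in the 344SQ comparisons and -0.10 in 393LN against 393P.

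The 5 nearest tested genes on each side of Amot on the X chromosome lay up to 5031 kb from it. In 344SQ against 393P 0 of these 10 passed the limma test, and 0 at an unadjusted p under 0.05, with changes between -0.22 and 0.34. In 344SQ against 393LN 2 were lower, Alg13 by 0.88 and Tmem29 by 0.56 on the log2 scale, and in 393LN against 393P Alg13 was higher, by 0.89 (limma adjusted p = 0.0131). In 344SQ against 393LN Alg13 and Tmem29 thus moved in the direction of Amot, and in 393LN against 393P Alg13 moved opposite to Amot. Xist, the X-linked RNA that silences one X chromosome in female cells, was at 11.94, 11.03, 6.82 and 10.69 in 344SQ, 6.78, 7.04, 6.89 and 6.88 in 393LN and 7.04, 6.83, 7.35 and 10.92 in 393P. Against the others of its line, Xist was low on 344SQ replicate 3 and high on 393P replicate 4. Both arrays had the highest Amot of their lines, at 5.42 and 10.39. The highest Amot thus went with low Xist in 344SQ and with high Xist in 393P. The part of Xist in the Amot values was not tested. Over the 10 members together, 11 of 100 neighbours passed in 344SQ against 393P, 11 in 344SQ against 393LN and 4 in 393LN against 393P, where 10.5%, 10.9% and 2.45% of all genes did.

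**Figure D5:**
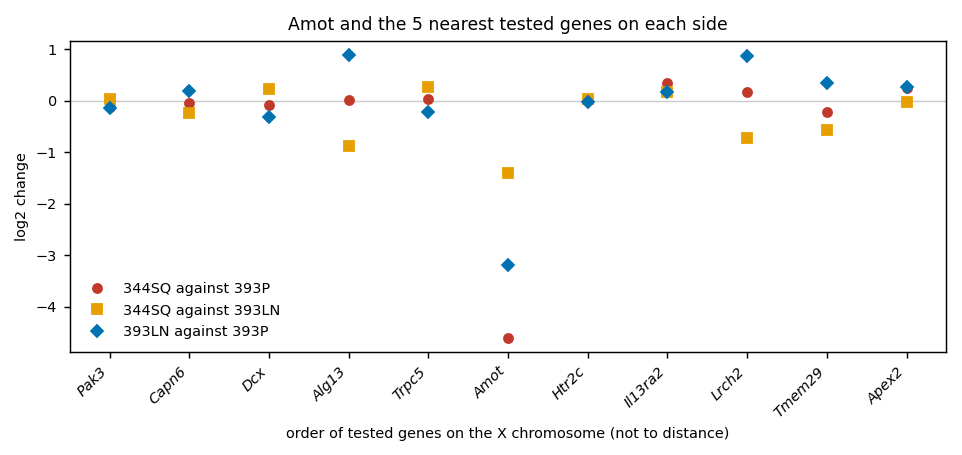
Log2 change of Amot and of the 5 nearest tested genes on each side of it on the X chromosome, in order of position, in the 3 comparisons (circles, squares and diamonds). Amot lies at -4.60, -1.41 and -3.19, and the neighbours between -0.88 and 0.89.

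As a measure of likeness, Pearson's r over the 12 arrays was taken between Amot and each gene outside the dimmest 40%, as a description with no test. The 5 most like genes were Rbpj, Tmem71, Ppp1r3b, Znrf2 and Flywch2, with r of 0.96, 0.94, 0.94, 0.93 and 0.93. With each line centred on its own mean these values were 0.70, 0.70, 0.26, 0.33 and 0.34. Those of Ppp1r3b, Znrf2 and Flywch2 thus rest mostly on the order of the lines, while Rbpj and Tmem71 were also like Amot within lines. Znrf2, a ubiquitin ligase gene, averaged 9.78 ± 0.20 in 344SQ, 10.56 ± 0.30 in 393LN and 11.59 ± 0.38 in 393P (SD, n = 4). For Yap1 the most like genes were Map3k4, Lnx2, Abhd17b, Rarres2 and Zfp866 (r from 0.86 to 0.91), and for Ccn2 they were Pygl, Ccdc92, Cacng7, Irak3 and Ccl6 (0.86 to 0.90). For both, the values within lines were 0.85 or higher, so that the likeness there lies in differences between arrays of one line.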

How the data were processed

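Total RNA of 12 tumour samples, 4 for each of 3 lines, was labelled with biotin and hybridised to 1-colour Affymetrix arrays, per the labels' protocols. The values are probe set intensities, linear, as deposited by the authors; how they were summarised and normalized was not stated in the labels. Every value (100%) is a power of 2 whose exponent has 2 decimals, so these are rounded log2 values turned back to intensities before the authors deposited them. The table held 0 columns of other samples.

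Tests used log2(intensity + 16), which understates the change of dim genes, without further normalization. Of 45101 probe sets, 34945 carry a single gene symbol, 932 several and 9160 none, and 64 are controls. Updating symbols by Entrez identifier changed 0 of them. The brightest probe set of each symbol entered the fit, 18193 genes in all. limma 3.58.1 (lmFit and eBayes) in R 4.3.3 fitted a mean for each line to all 12 arrays, with 9 residual degrees of freedom, two-sided, and Benjamini-Hochberg adjustment over all genes, or over the 34945 for other probe sets. A gene is called at an adjusted p under 0.05. Counts at an unadjusted p under 0.05 are given without the share of all genes at that threshold, which was not computed. Precision is limited by the number of arrays.

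The members and lists were chosen with earlier results of these data known. All 10 members are named. From the pathway and target lists, written from general knowledge, the called genes with the 4 smallest p per direction and comparison are named. Epcam, Tead4, Axl against 393LN, Alg13, Tmem29 and Znrf2's levels were picked out after their values were seen. Markers are given as sums of intensity. Lists are described by counts and medians, with no set test. The fit was tested on simulated data. Alternatives were scaling, pseudocount, filters on dim genes, the mean of a gene's probe sets, only the lines compared, an intensity trend in limma's prior, and leaving out each array. Sequences are from RefSeq, GRCm38.p6.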

Additional observations from a re-analysis of the deposited data

Results flagged for a closer look

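Of 81 sets of 4 arrays (27 probe sets in 3 lines), 7 held an array far from the other 3 of its line; chance gives about 1 in 20. On the log2(intensity + 16) scale these were 344SQ replicate 4 for Wwtr1 at 12.28 and for the chosen probe set of Lats2 at 10.22, 344SQ replicate 3 for Amot probe set 1425907_s_at at 6.15, and 344SQ replicate 1 for Ankrd1 probe set 1420991_at at 10.64. On 393LN replicate 2, Lats2 probe set 1419678_at was low at 7.66 and Lats2 probe set 1426156_at was high at 5.25. On 393P replicate 4, Ccn1 was low at 11.64. Apart from 1426156_at, each was the lowest array of its line.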

How the results depend on the processing

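No paired analysis was possible because the labels give no replicate numbers shared between lines. No result turned its direction past a threshold under any alternative run. Of the single-gene values under the alternatives, 1250 kept their side of the threshold, 85 lost a call and 27 gained one; of the counts, 328 stayed within 1.5 times and 80 did not. With the mean of a gene's probe sets, members higher in 344SQ numbered 1 against 393P and 1 against 393LN, with 0 lower against 393LN; partner genes numbered 0 higher and 1 lower against 393P and 0 lower against 393LN, with 0 higher in 393LN than in 393P; and 0 target genes were lower in 344SQ than in 393P. Leaving out the dimmest 50% of genes, which removes Amot from the test, left 1 member lower in 344SQ than in 393P, 0 than in 393LN and 0 in 393LN than in 393P; 5 partner genes were then higher and 2 lower, and 2 targets higher, in 344SQ than in 393LN. A pseudocount of 64 left 0 members lower in 344SQ than in 393LN, and a pseudocount of 1 left 0 partner genes lower there and 1 higher in 393LN than in 393P. Quantile normalization gave 5 partner genes higher and 0 lower in 344SQ than in 393LN and 4 lower in 393LN than in 393P. It split all calls 923 higher to 1007 lower in 344SQ against 393LN (725 to 1259 without it) and 234 to 185 in 393LN against 393P (319 to 127). One target gene (1) was lower in 393LN than in 393P under quantile normalization, a pseudocount of 64, or without the dimmest 25% or 50%. With only the 2 lines compared in the fit, which leaves fewer arrays, 0 targets were lower in 344SQ than in 393P, 1 partner gene was higher in 393LN than in 393P, and of all genes 118 were higher and 56 lower there. Leaving out 1 array at a time, genes higher and lower ranged over 565 to 872 and 654 to 1053 in 344SQ against 393P, 427 to 705 and 740 to 1170 in 344SQ against 393LN, and 105 to 247 and 48 to 166 in 393LN against 393P. Members in 344SQ against 393LN ranged over 0 to 2 higher and 0 to 1 lower. Partner genes ranged over 2 to 3 higher and 4 to 5 lower in 344SQ against 393P, 3 to 4 higher and 0 to 1 lower in 344SQ against 393LN, and 0 to 2 higher and 2 to 3 lower in 393LN against 393P. Targets ranged over 1 to 4 higher and 0 to 1 lower in 344SQ against 393P and 3 to 4 higher in 344SQ against 393LN. Where no alternative's construction shows it, the cause was not tested. Amot in 344SQ and Foxf2 in the 393 lines lie near the dim end of the scale, where the size of a fold depends on the pseudocount. Foxf2 was not tested without the dimmest 25% or 50% of genes.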

Other observations

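Markers of further cell types were summed in the same way. Endothelial markers summed to an intensity of 5306 to 8129 in 344SQ, 5844 to 8341 in 393LN and 5526 to 7284 in 393P, and 0 of 9 passed the limma test in any comparison (0 at an unadjusted p under 0.05). Markers of pericytes and smooth muscle summed to 9143 to 13697 in 344SQ, 9752 to 12038 in 393LN and 11006 to 14818 in 393P. Of these, 1 of 7 was lower in 344SQ than in 393P, where 5.62% of all genes were. Heart muscle markers summed to 3617 to 5794 in 344SQ, 2278 to 3949 in 393LN and 3283 to 3766 in 393P. Lymphocyte markers summed to 355 to 2011 in 344SQ, 1132 to 1698 in 393LN and 584 to 1165 in 393P. Of the lymphocyte markers, 1 of 7 was higher in 344SQ than in 393P, where 4.86% of all genes were. The 2 measured fat markers summed to 1177 to 7428 in 344SQ, 1161 to 3664 in 393LN and 732 to 4317 in 393P.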
